A study of Mus musculus with 4 samples.

Results

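Plakins are very large proteins that tie the cytoskeleton to cell junctions and to each other. Macf1 and Dst encode spectraplakins, which bind actin and microtubules. Plec and the epithelial form made from Dst fasten keratin filaments to hemidesmosomes, the anchors of basal keratinocytes on the basement membrane, and Dsp encodes desmoplakin, which fastens keratin filaments to desmosomes between cells. Evpl and Ppl encode envoplakin and periplakin, partners that are built into the cornified envelope of the outer epidermal layers.

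The 6 genes Macf1, Dst, Plec, Dsp, Evpl and Ppl were taken as the plakin family, and every site whose gene name was one of them was kept. They held 64 of the 8246 sites of list 2 and 48 of the 6038 sites of list 1, and they are 6 of the 6625 genes with a site in either list. The genes were chosen by family and also by the number of sites and of overlapping sites that earlier readings of these lists had shown in Macf1, Dst and Dsp, so their site numbers and overlaps are a description and carry no test. Each gene is on a different chromosome of the mouse build GRCm38, on which all positions are given, counted from 1.

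Sites of N6-methyladenosine (m6A), a common chemical mark within messenger RNA, were located in keratinocytes from the epidermis of untreated mice at postnatal day 0 by pulling down RNA fragments with an antibody against m6A (IP) and sequencing them beside the unselected fragments (input). There were 4 libraries, 2 of m6A IP and 2 of input. All came from control mice of the genotype K14Cre, Mettl14 F/+, which carry Cre under a keratin 14 promoter, active in basal keratinocytes, and 1 floxed allele of Mettl14, a subunit of the m6A methyltransferase, and no other genotype was compared here. The data are 2 lists of sites, list 2 and list 1, in which the fold enrichment of IP over input, the p-value and the false discovery rate (FDR) of a site are the authors' values. No label says which replicate a list comes from, the lists hold no read counts, and the depth of each library is unknown, so no value of a single site has an error and the difference between the lists at a site was not tested. The FDR of a site was at least 51.16% in list 2 and at least 55.67% in list 1. Whether the deposited FDR is on the usual percent scale is uncertain.

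Of 10 keratinocyte marker genes, 3 had a site in list 2 and 4 in list 1. Trp63 and Flg2 were in both lists, and Krt14, Krt15, Krt1, Krt10 and Lor were in neither. Of 9 dermal fibroblast markers 5 had a site in list 2 and 6 in list 1, of 6 melanocyte markers 3 in list 2 and 3 in list 1, of 5 endothelial markers 3 in list 2 and 2 in list 1, of 6 muscle and nerve markers 2 in list 2 and 3 in list 1, and of 4 immune markers 0 in list 2 and 1 in list 1. The share of all mouse genes with a site was not counted, so these numbers have no comparison. A site list does not measure expression, and how far RNA of other cell types entered the plakin sites was not tested.

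A single plakin site reached the start of a transcript, and its sequence is shown because it is the part of a plakin site that the start windows from RefSeq cover. Such a window runs from 250 bases before to 50 bases after a start, and 3 of the 6 genes had 4 windows between them. It belonged to Dst, was held by list 2, and spanned 34160253 to 34160474 on chromosome 1 (fold enrichment 91.48, FDR 59.47%). It began 7 bases before the start at 34160260, and 57 of its 222 bases lay in the window. The stretch chr1:34160153-34160282 of the plus strand (GRCm38.p6) is given 5′ to 3′, with the first 30 bases of the site in capitals and the bases before it in lower case.
Dst start: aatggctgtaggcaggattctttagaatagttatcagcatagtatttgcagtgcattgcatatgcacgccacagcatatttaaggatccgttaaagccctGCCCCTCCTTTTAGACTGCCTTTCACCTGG
Among 4 words of the kind in which m6A is known to be placed, AGACT occurred on the transcript strand, 13 bases into the capitals, GAACT occurred on the other strand of the 57 bases, and GGACT and AAACT did not occur on either strand. Of all 32851 start windows, 11.1% held AGACT, 10.2% GAACT, 11.7% GGACT and 8.63% AAACT on either strand in their last 57 bases. Read on the given strand alone, 5.67% held AGACT. List 1 had no site in this window. Of sites whose gene had a window, 5.16% in list 2 and 5.83% in list 1 overlapped it. The start window of another Dst transcript, further down the chromosome at 34011345 to 34011644, held no site, and the nearest, in list 1 at 34011825 to 34011915, began 230 bases after that start with a fold of 3.19.

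All 6 genes had sites in both lists, and 5 of them had at least 1 site that overlapped between the lists by at least 1 base. Of genes with a site in either list, 39.4% were in both and 27.2% had an overlapping pair. In list 2 the numbers of sites were 18 for Dst, 17 for Macf1, 12 for Plec, 11 for Dsp, 4 for Evpl and 2 for Ppl. In list 1 they were 13 for Dst, 12 for Macf1, 5 for Plec, 12 for Dsp, 2 for Evpl and 4 for Ppl. By number of sites Dst ranked 2, Macf1 3, Plec 5 and Dsp 7 among the 5045 genes of list 2, where Plec shared its rank with 1 other gene and Dsp with 2. In list 1, of 4187 genes, Dst ranked 1, Macf1 and Dsp shared rank 2 with Syne2, and Plec stood at rank 32 among 33 genes with the same number. Having 10 or more sites was rare, at 0.238% of genes in list 2 and 0.0955% in list 1. Among such genes were 4 plakin genes in list 2 and 3 in list 1. Macf1, Dst and Dsp were chosen partly by their number of sites, so these ranks and counts carry no test. Dst, Macf1, Plec and Dsp are long genes. Per 10 kb of gene span, introns included, list 2 had 2.33 sites in Dsp, 2.27 in Evpl, 1.99 in Plec, 0.503 in Macf1, 0.449 in Dst and 0.433 in Ppl. By the same measure list 1 had 2.54 in Dsp, 1.14 in Evpl, 0.828 in Plec, 0.355 in Macf1, 0.324 in Dst and 0.866 in Ppl. The order by number thus differed from the order by span, in which Macf1 and Dst stood below Dsp in both lists.

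**Figure D1:**
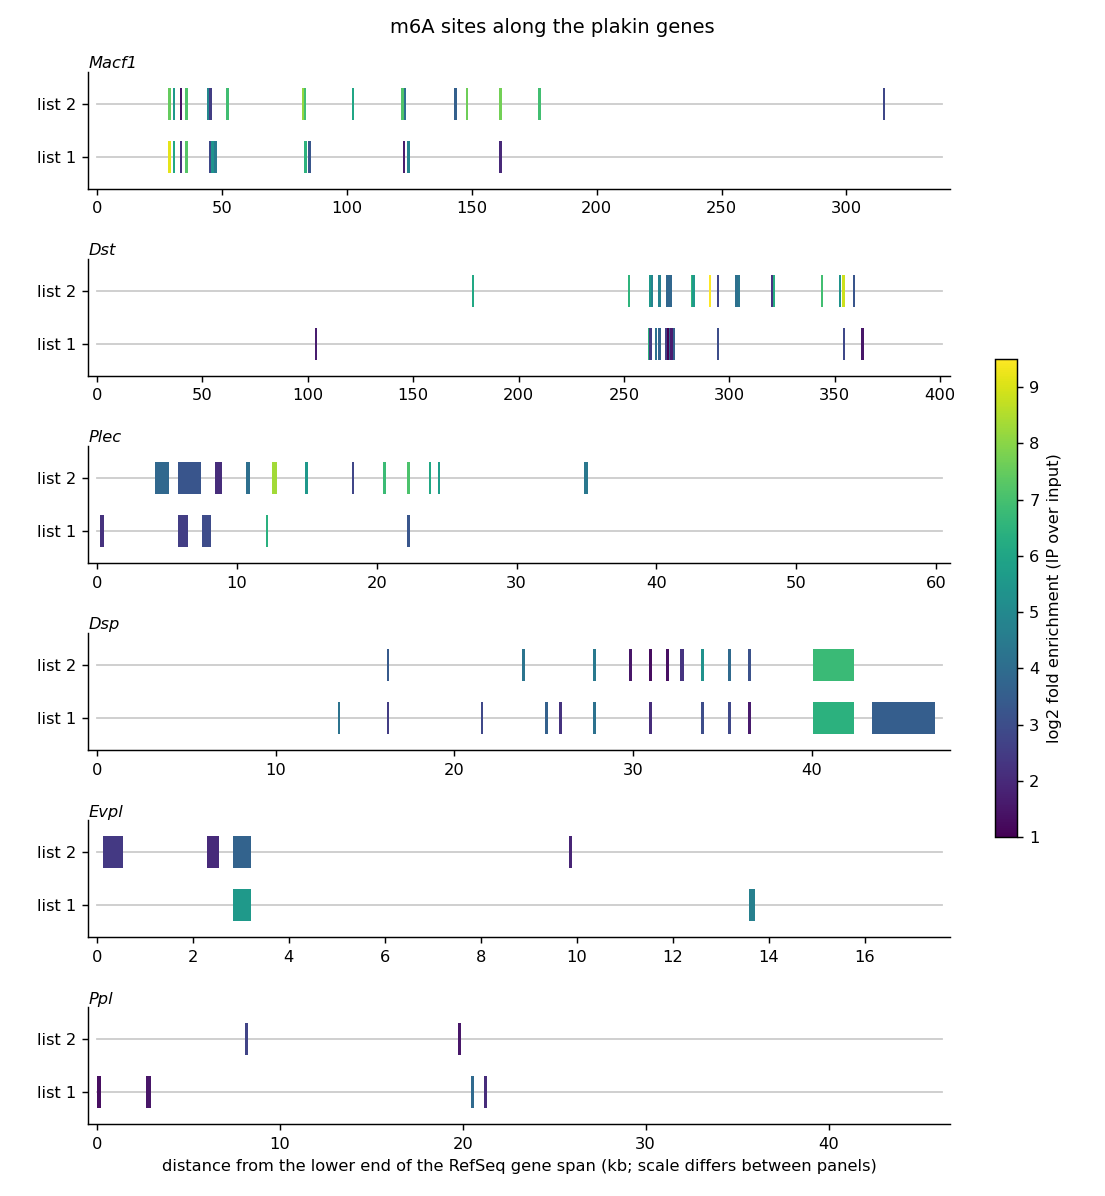
Sites of list 2 (upper row) and list 1 (lower row) along each plakin gene, as distance in kb from the lower end of the gene span, with colour for log2 fold enrichment of IP over input. Boxes narrower than 0.3% of the span are drawn at that width. Dsp has 7 of its 16 places in both rows and Macf1 8 of its 21, and Dst shows many sites in list 2 to the right of the crowded stretch where list 1 has few.

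Over the 6 genes the fold enrichment had a median of 23.8 in list 2 (quartiles 8.37 and 98.3, range 2.45 to 713.15) and 7.93 in list 1 (quartiles 4.67 and 19.6, range 2.04 to 562.34). Sites of all other genes had medians of 11.8 in list 2 and 11.6 in list 1, so that the plakin median lay above that of the other genes in list 2 and below it in list 1. A fold above 100 was found at 16 of the 64 plakin sites of list 2 (25%, against 12.6% of the sites of other genes) and at 2 of 48 in list 1 (4.17%, against 14.5%). The median plakin site was 201 bases long in list 2 and 155.5 in list 1, and that of other genes 169 in list 2 and 184 in list 1. A p of 1e-05 or less was given for 58 of 64 plakin sites in list 2 and for 42 of 48 in list 1, beside 76.9% of all sites in list 2 and 73.7% in list 1. The FDR was below 100% at 41 of 64 sites in list 2 and at 21 of 48 in list 1, against 48.5% of all sites in list 2 and 40.8% in list 1.

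**Figure D2:**
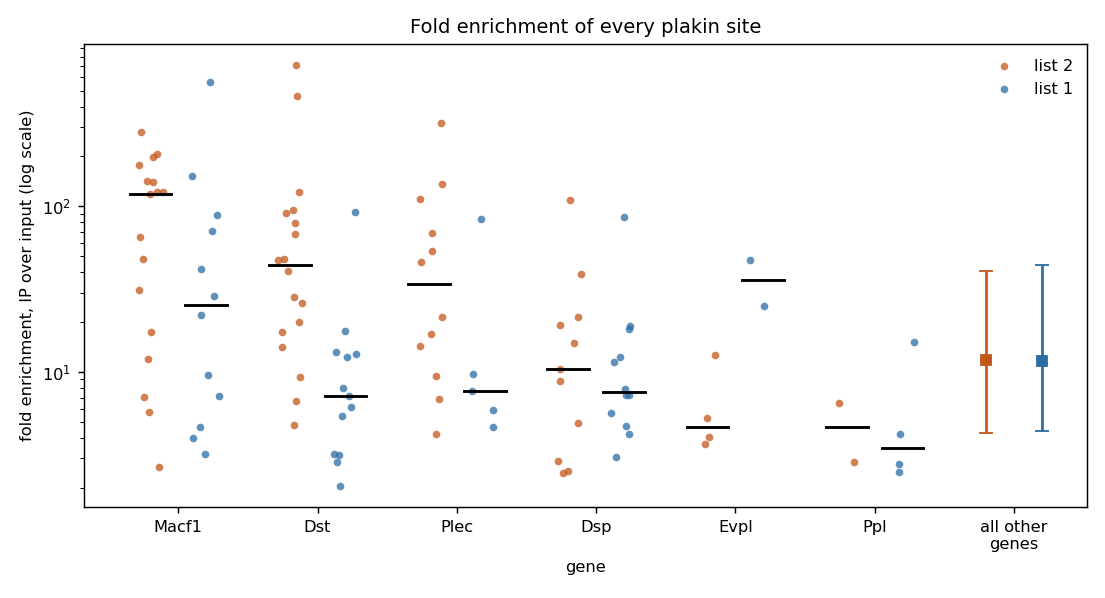
Fold enrichment of every plakin site on a log scale, list 2 left of list 1 for each gene. Black bars are medians, and squares with bars on the right are the median and quartiles of the sites of all other genes. The medians of Macf1, Dst and Plec stand at 118.78, 44.3 and 33.9 in list 2, against 25.3, 7.16 and 7.64 in list 1, while Evpl stands at 4.65 in list 2 and 36.1 in list 1.

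Of the plakin sites, 23 of 64 in list 2 overlapped a site of list 1 (35.9%, 95% Wilson interval 25.3 to 48.2), and 26 of 48 in list 1 overlapped a site of list 2 (54.2%, 40.3 to 67.4). Over all genes the shares were 26.8% in list 2 and 36.7% in list 1. The intervals cover counting error only, and sites of a gene share its RNA. Macf1, Dst and Dsp were chosen partly by their overlapping sites. Neither the intervals nor the shares set beside those of all genes are therefore a test. Dsp and Macf1 held most of the overlapping sites of list 2, while in list 1 Dst had as many as Macf1. In list 2 the overlapping sites were 7 of 11 in Dsp, 8 of 17 in Macf1, 5 of 18 in Dst, 2 of 12 in Plec, 1 of 4 in Evpl and 0 of 2 in Ppl. In list 1 they were 7 of 12 in Dsp, 8 of 12 in Macf1, 8 of 13 in Dst, 2 of 5 in Plec, 1 of 2 in Evpl and 0 of 4 in Ppl. When sites of a gene within 200 bases of each other were joined, the 6 genes held 85 separate places, of which 23 were common to the lists, 41 came from list 2 and 21 came from list 1. The 41 sites of list 2 without an overlap lay a median of 3693 bases from the nearest site of list 1 in the same gene, and 12 of them lay within 1000 bases. The 22 such sites of list 1 lay a median of 1571.5 bases from list 2, and 6 lay within 1000 bases.

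**Figure D3:**
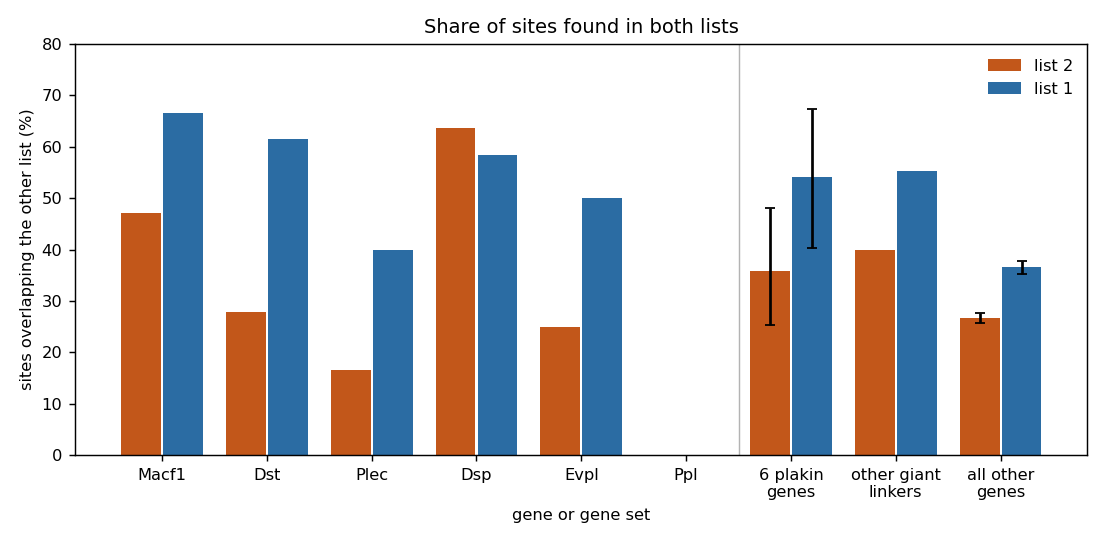
Share of sites that overlapped a site of the other list by at least 1 base, in percent, list 2 left of list 1, for each plakin gene and, right of the line, for the 6 genes together, 12 other giant cytoskeletal linkers and all other genes. Error bars are 95% Wilson intervals over sites and are no test, because the genes were chosen partly by their overlapping sites. Ppl has no bar because none of its sites overlapped, and the 6 plakin genes stand at 35.9% in list 2 and 54.2% in list 1.

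At the desmosome, Dsp had 7 overlapping pairs, most of them with the same ends in both lists. The interval at chromosome 13, 38191361 to 38193655, 2295 bases long, was called with the same ends in both lists and had the highest fold of the gene in each, 108.66 in list 2 and 85.65 in list 1. Of the 7 overlapping pairs, 6 had both ends identical, among them 38179048 to 38179200 with folds of 21.42 in list 2 and 18.09 in list 1, and 38167516 to 38167664 with 10.36 in list 2 and 5.65 in list 1. The fold was higher in list 2 at 6 of the 7 pairs. The largest difference was at 38185096 to 38185262, with 39.17 in list 2 and 7.89 in list 1. The fold at 38186595 to 38186788 was 15.01 in list 2 and 7.25 in list 1, and at 38187741 to 38187903 it was 8.79 in list 2 and 3.08 in list 1. All 5 of these shorter intervals were thus weaker than the long one in both lists. The pair that was lower in list 2, 2.45 against 4.22 in list 1, ended at 38182328 in both lists and had an FDR of 100% in each. Toward the upper end of the gene list 1 held a site of 3493 bases, 38194696 to 38198188, with a fold of 11.43. It was the longest site of list 1 over all genes, ended 389 bases from the end of the gene span, and had no counterpart in list 2. Sites covered 3976 bases of Dsp in list 2 and 7105 in list 1, of which this site alone made up 3493.

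Macf1, whose product guides microtubules along actin, had most of its overlapping sites in the lower part of the gene. The gene is read on the minus strand, per the RefSeq start window, so that its transcript finishes at the lower end. The lowest site, at the same place in both lists, began 29024 bases above that end. The lowest 15% of the span held 6 of 17 sites in list 2, 5 of them overlapping, and 7 of 12 in list 1. The strongest of these, at chromosome 4, 123378657 to 123378812, had the same ends in both lists and a fold of 178.7 in list 2 and 562.34 in list 1, the highest plakin value of list 1. The site at 123385455 to 123385686, again with the same ends, had 139.78 in list 2 and 151.61 in list 1. Next to it, 123383301 to 123383423 had 2.68 in list 2 and 4.66 in list 1 with the same ends and an FDR of 100% in both lists. Strong and weak sites thus stood side by side in this part of the gene, in the same order in both lists.

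The other Macf1 pairs differed more in extent. At 123380415, a start common to both lists, the fold was 48.34 in list 2 and 70.6 in list 1, and at 123395006, also a common start, it was 5.69 in list 2 and 7.11 in list 1. A site at 123432861 to 123433167 in list 2 (122) overlapped 123432899 to 123433398 in list 1 (88.41). Higher up the gene the lists diverged. The site ending at 123511245 had a fold of 205.66 in list 2 and 3.97 in list 1, with an FDR of 63.94% in list 2 and 100% in list 1, and that at 123472636 to 123473092 in list 2 had 17.36 against 3.19 at 123472328 to 123472835 in list 1. Of the 9 Macf1 sites of list 2 without an overlap, 5 had a fold above 100, the highest 279.46 at 123431998 to 123432472, and the other 4 had 64.9, 31.44, 12.02 and 7.09. List 2 held 9 Macf1 sites with a fold above 100, and list 1 held 2. The gene D830031N03Rik lies within the span of Macf1 and had sites of its own there, 2 in list 2 (108.36 and 102.99) and 1 in list 1 (485.43). They were not counted as Macf1, and whether reads of the overlapping genes could be told apart was not tested.

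Dst, the other spectraplakin, had sites of both lists in a short stretch of the gene and, above it, more sites in list 2 than in list 1. The sites assigned to the transcript NM_010081 lay within 12127 bases, from 34169750 to 34181876. That stretch held 4 of the 18 Dst sites of list 2 and 9 of the 13 of list 1. Above it list 2 had 12 sites with a median fold of 44.5 and list 1 had 3 with a median of 7.16. Sites assigned to NM_133833 numbered 11 in list 2, with folds of 4.8 to 713.15, and 4 in list 1, with folds of 2.87 to 7.97 and an FDR of 100% at each. A further 2 sites of list 2, 94.82 and 48.08, were assigned to NM_134448, to which list 1 assigned none. Which transcripts of Dst the cells made cannot be read from site lists.

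**Figure D4:**
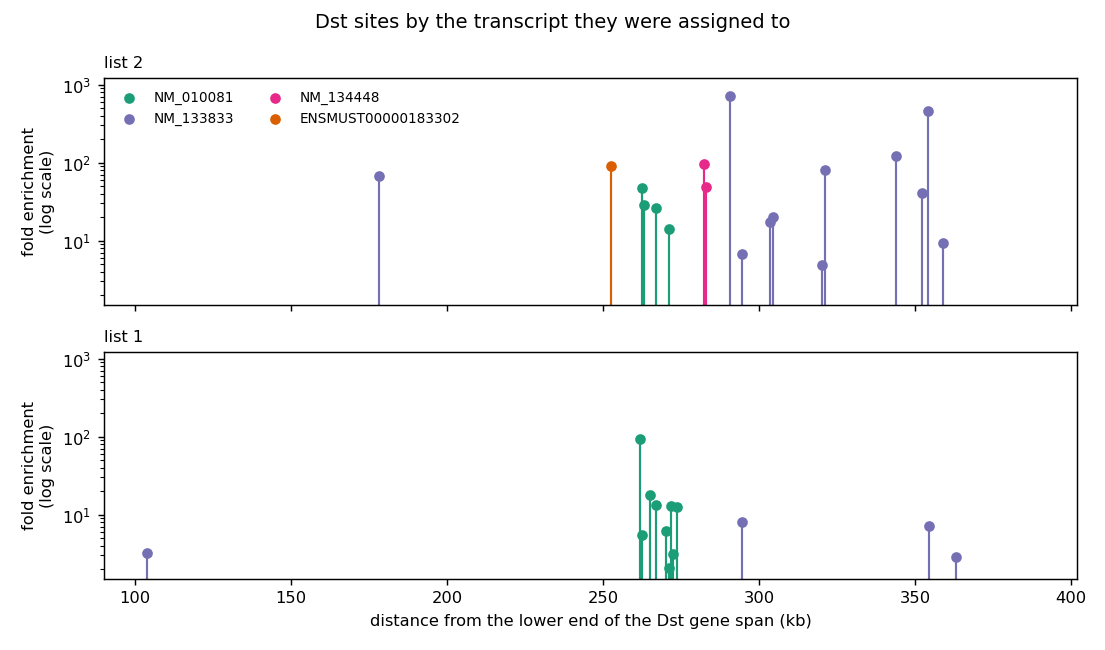
Fold enrichment on a log scale of each Dst site against its distance in kb from the lower end of the gene span, list 2 above list 1, coloured by the transcript the authors' lists assign. List 1 clusters in the NM_010081 stretch with 9 of its 13 sites, and list 2 spreads over the part above it with 12 of its 18.

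Within the NM_010081 stretch, list 2 had a single site of 2703 bases at 34177796 to 34180498, with a fold of 14.08. List 1 had 4 separate sites inside it, with folds of 6.12, 2.04, 12.79 and 3.16, the first of which shared its start and the last its end with the long site. Site numbers thus differed more than the length covered, which was 2964 bases in list 2 and 2344 in list 1 in this stretch. The site at 34174697 to 34174795 had the same ends in both lists, with 26.15 in list 2 and 13.22 in list 1. The pair ending at 34170498 had 47.71 in list 2 and 5.41 in list 1. Both pairs were higher in list 2. In the upper part of the gene, the pair that begins at 34202445 in both lists had 6.68 in list 2 and 7.97 in list 1. The pair that ends at 34262251 in both lists had 464.76 in list 2 and 7.16 in list 1, the widest gap of any plakin pair (log2 difference 6.02). The strongest Dst site of list 2, at 34198518 to 34198751 with 713.15, had the nearest site of list 1 at 3693 bases. The strongest of list 1, at 34169750 to 34169928 with 91.85, lay 493 bases from list 2.

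Plec, which encodes the keratin linker plectin, had 12 sites in list 2 and 5 in list 1, the largest excess of list 2 among the 6 genes. Over all genes list 2 held 1.37 times as many sites as list 1, and Plec 2.40 times as many. A 47-base site at chromosome 15, 76193221 to 76193267, had the same ends in both lists and a fold of 136.82 in list 2 (FDR 59.47%) and 9.69 in list 1 (FDR 100%). The other pair shared its start at 76176748 and had 9.46 over 1638 bases in list 2 and 5.88 over 750 bases in list 1. The strongest sites of the lists were neighbours that did not overlap. That of list 2 was at 76183523 to 76183879 (316.77) and that of list 1 at 76183091 to 76183195 (84.06), 327 bases apart. An FDR below 100% was given for 8 of the 12 sites of list 2 and, of the 5 sites of list 1, for its strongest alone. Sites of list 2 at 76191513 to 76191535 (110.93), 76194751 to 76194812 (68.63) and 76195424 to 76195451 (53.64) had no counterpart within 1000 bases in list 1.

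The plakins of the cornified envelope had few sites, 4 in Evpl and 2 in Ppl in list 2, against 2 in Evpl and 4 in Ppl in list 1. Evpl had 1 overlapping pair, at chromosome 11, 116223393 to 116223771 in list 2 (fold 12.69) and 116223397 to 116223772 in list 1 (47.08), whose ends differed by a few bases. It was the strongest Evpl site of each list. The other sites were at 5.27, 4.03 and 3.65 in list 2 and at 25.18 in list 1. Evpl was the only one of the 6 genes whose median fold was lower in list 2 (4.65) than in list 1 (36.1).

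Ppl had 2 sites in list 2 and 4 in list 1, on chromosome 16, and none overlapped. The folds were 6.48 and 2.87 in list 2, and 2.47, 2.77, 15.07 and 4.19 in list 1, and the FDR was 100% at all 6 sites. The closest approach of the lists was 604 bases, between 5106051 to 5106157 in list 2 and 5106762 to 5106882 in list 1. Envoplakin and periplakin are known to act as a pair, and in these lists only Evpl had a place found in both.

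Taking each site in 1 pair at most, with the largest overlap first, gave 23 plakin pairs. The fold was higher in list 2 at 15 of the 23 (65.2%), against 47.8% of the 2202 pairs of all genes, and log2 fold differed by a median of 0.69 (list 2 minus list 1, quartiles -0.29 and 2.38), against -0.11 over all pairs. By gene the median was -0.22 for the 8 pairs of Macf1, 2.79 for the 5 of Dst, 2.25 for the 2 of Plec, 0.87 for the 7 of Dsp and -1.89 for the pair of Evpl. The values lay within 2-fold at 12 of the 23 pairs (52.2%), against 51.8% over all genes. At 7 pairs (30.4%) they differed by more than 4-fold, against 24.9% over all genes, and at each of the 7 list 2 was higher. How many such pairs over all genes were higher in list 2 was not counted, so this direction has no comparison. Of the 7, the Dsp pair at 38185096 alone had an FDR below 100% in list 1. The Dst median rests on how the 2703-base site was paired, since the piece of list 1 with the largest overlap was also its weakest. With pairs taken by the highest folds instead, an alternative chosen after seeing the data, the Dst median was 0.98, the plakin median 0.46, and 6 pairs differed by more than 4-fold, all higher in list 2. Of the 23 pairs, 10 had an FDR below 100% in both lists, 7 had 100% in list 1 only, and 6 in both.

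**Figure D5:**
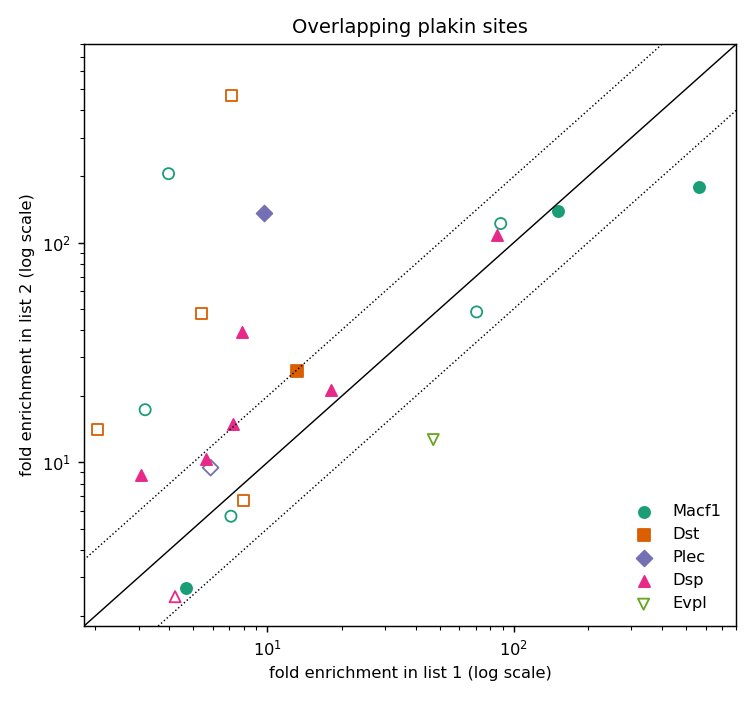
Fold enrichment of the 23 overlapping plakin pairs, list 2 on the vertical and list 1 on the horizontal axis, both on log scales. Filled symbols are the 11 pairs with both ends identical, the solid line marks equal values and the dotted lines a 2-fold difference. The 7 pairs more than 4-fold apart (30.4%, against 24.9% of the pairs of all genes) all lie above the line. The direction of such pairs over all genes was not counted.

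Over the 23 pairs Pearson's r of log2 fold between the lists was 0.502 and Spearman's rho was 0.481, against 0.564 and 0.537 over all 2202 pairs. Within the 7 Dsp pairs r was 0.827 and rho 0.929, and within the 8 Macf1 pairs 0.611 and 0.381. These are descriptions across sites, which share their gene, their libraries and the peak caller. Both ends were identical at 11 of the 23 pairs (47.8%), 6 of them in Dsp and 3 in Macf1, against 31.9% of the pairs of all genes. Of these 11 pairs 6 lay within 2-fold, as did 6 of the 12 others.

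In the annotation deposited with the sites, all 6 genes carried the term cytoskeleton, which 525 of the genes with a site carried, and all but Macf1 the term cell junction, which 332 carried. Dst and Plec shared the term hemidesmosome, found at 8 genes, and Dsp and Evpl the term cornified envelope, found at 12.

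The remaining plakin gene, Eppk1, encodes the keratin-binding protein epiplakin and lies beside Plec. Of its 4 sites in list 2, 3 overlapped, and of its 5 sites in list 1, 4 did. Its sites were long, with a median of 2019.5 bases in list 2 and 727 in list 1. The strongest was at 76110212 to 76112506 in list 2 (668.55) and 76111128 to 76111897 in list 1 (137.54), an overlapping pair. Because epiplakin is built of near-identical repeats, reads within the gene could have been placed wrongly, and its values are uncertain.

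Genes whose products work with plakins were counted beside them. Over all genes with a site in either list, 39.4% were in both lists and 27.2% had an overlapping pair. The counts below are out of every gene named in a group, also those without a site, so they are not directly comparable with these shares. Of 4 hemidesmosome genes, 3 had a site in both lists and 1, Itga6, an overlapping pair (6.31 in list 2 and 24.02 in list 1). Of 13 desmosome genes, 10 had a site in list 2 and 7 in list 1, and 4 had an overlapping pair, namely Dsg1a, Dsg1b, Dsc3 and Pkp1. Dsg1a and Dsg1b are close copies, so their sites are uncertain. The plaque gene Jup, which encodes a binding partner of desmoplakin, had 2 sites in list 1 and none in list 2. Of 6 genes of the cornified envelope scaffold and its crosslinking, 2 had a site in list 2, Ivl and Tgm1, and 0 in list 1. Of 10 genes of microtubule tips and minus ends, 6 had a site in list 2 and 5 in list 1, and Clasp1, which encodes a microtubule-stabilising partner of the Macf1 product, had the overlapping pairs (2.59 in list 2 and 147.26 in list 1 at the pair with the largest overlap).

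The closest comparison was with 12 other giant cytoskeletal linkers, such as nesprins, spectrins and filamins. Of these 11 had a site in both lists, 9 had an overlapping pair and 1 had no site. Over all genes with a site in either list, 39.4% were in both and 27.2% had an overlapping pair. Overlap with the other list was found at 40.0% of their 55 sites in list 2 and 55.3% of their 38 sites in list 1, beside 35.9% in list 2 and 54.2% in list 1 for the plakins. The median fold of these linkers was 17.1 in list 2 and 18.9 in list 1, beside 23.8 in list 2 and 7.93 in list 1 for the plakins. Syne2, which encodes a nesprin of the nuclear envelope, had 20 sites in list 2 and 12 in list 1 with 6 overlapping pairs, and Ahnak, which encodes a giant scaffold protein, had 7 in list 2 and 9 in list 1 with 7 pairs. No difference between the plakins and these genes was tested.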

How the data were processed

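Per the labels' protocols, polyadenylated RNA was fragmented and pulled down with an anti-m6A antibody on protein-A beads. Nothing in the labels says whether libraries of a group came from separate animals. Peak names in the deposited lists, under the PeakID column of the file headers, contain MACS, a peak caller, with a version not given in the sources used here. Per the submitters' processing notes the genome build was GRCm38. The deposited fold is a ratio of IP to input and was never below 2. The score in the deposited lists is -10 log10 of the p-value, with ties at 3100, and the deposited FDR is a percent. The libraries behind each list, and any pooling of them, are not stated in these notes or headers, and depth is unknown.

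Deposited starts were counted from 0 and were raised by 1. Sites overlapped when they shared at least 1 base on a chromosome, whatever the strand. For pairs, each site was used in 1 pair at most, with the largest overlap first. Gene spans and start windows came from RefSeq tables on GRCm38.p6, and all plakin sites lay within their gene's span. Sequences under the other sites, exons and proteins were not used here. The members, gene lists and alternatives were chosen with earlier results of these data known. All 6 genes are named, with every overlapping pair and the strongest site of each list; other sites and Eppk1 were named in addition, some after their values were seen. No test was run. Overlap, pairing and clustering were tested on simulated lists. Python 3.11.15, pandas 2.3.3, numpy 2.4.6, scipy 1.17.1 and matplotlib 3.10.9 were used.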

Additional observations from a re-analysis of the deposited data

How the results depend on the processing

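No paired analysis was possible because the lists are not tied to replicate numbers and hold no values per library, and for the same reason no library could be left out. With sites at an FDR below 100%, the 6 genes held 41 sites in list 2 and 21 in list 1, of which 11 in each list overlapped, at 11 places. The plakin shares were then 26.8% in list 2 and 52.4% in list 1, beside 16.7% in list 2 and 27.1% in list 1 for all genes. With the 50% of each list that had the higher fold, list 1 held 20 plakin sites, and 9 sites of each list overlapped at 9 places. These were 20.5% of those left in list 2, beside 21.2% for all genes, so that the plakin share of list 2 was no longer the higher. In list 1 the plakin share was 45%, beside 29.0% for all genes. Both settings keep fewer sites by construction. A reciprocal overlap of 50% lowered the share of list 1 to 37.5%, beside 30.7% for all genes. In the remaining 53 combinations of result and setting, counts stayed within 1.5 times, shares within their Wilson interval and the median log2 difference within its 95% binomial interval of -0.25 to 2.31. That interval includes 0. It takes the 23 pairs as independent although they come from 5 genes, so it served only as a range here and is no test. The median was 0.24 with an FDR below 100% and 0.40 without Dst, against 0.69 with all pairs. Adding Eppk1, leaving out each gene in turn and pairing by fold were chosen after seeing the data. The lists give no counts, so what depth limits could not be examined.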
